A study of Homo sapiens with 22 samples.

Results

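The glioblastoma cell line KNS-42 was set against 4 other lines, LN-229, SNU-1105, U-138MG and U-87MG, by RNA-seq of poly(A) RNA from unstimulated cultures. It has 2 libraries and the 4 other lines have 2 each, so 10 of the 22 libraries of the series (11 lines) are used here. All 5 are established human glioblastoma lines without any labelled treatment or genetic change, grown at 37 °C and 5% CO2 with 10% serum. KNS-42 and LN-229 were kept in DMEM, SNU-1105 in RPMI 1640, and U-138MG and U-87MG in EMEM, so except against LN-229 the medium and the line cannot be told apart. No label tells if each line's pair of libraries stems from separate cultures, so every p-value below measures only the spread between libraries, which may be technical. A gene belonged to the KNS-42 pattern when both KNS-42 libraries lay beyond all 8 others, which held for 452 (above) and 251 (below) of the 2221 genes in the deposited table.

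Glioblastoma is a malignant brain tumour of glial lineage, and its cells move between states that resemble neural progenitors, oligodendrocyte progenitors, astrocytes and mesenchyme. The progenitor state is known for the transcription factor SOX2 and its relatives, which keep neural stem cells undifferentiated, and for genes of early neurons. The mesenchymal state is known for AP-1 factors, secreted matrix such as fibronectin, and the integrins through which cells grip that matrix.

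SOX21 and its antisense RNA SOX21-AS1 start close to each other on opposite strands and were both far higher in KNS-42, so the 250 bases before the SOX21 start are shown (RefSeq, GRCh38.p14, chr13:94712546-94712795, minus strand, 5′ to 3′). The 80 capital letters are annotated on the other strand as SOX21-AS1, whose RefSeq start lies 171 bases from that of SOX21.
SOX21 promoter: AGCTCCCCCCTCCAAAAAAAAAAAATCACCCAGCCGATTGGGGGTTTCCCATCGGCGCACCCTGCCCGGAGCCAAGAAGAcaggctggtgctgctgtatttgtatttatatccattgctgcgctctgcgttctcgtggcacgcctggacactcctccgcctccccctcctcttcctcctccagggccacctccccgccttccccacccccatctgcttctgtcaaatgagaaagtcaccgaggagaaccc
LRRC15, a membrane protein gene, was among the genes furthest below the other lines, and its promoter (chr3:194369744-194369993, minus strand) holds 1 match to the AP-1 motif TGANTCA, in capitals, 48 bases before the start. FOSL1, which encodes an AP-1 subunit, was itself lower in KNS-42, which is why this sequence is shown. Whether FOSL1 bears on LRRC15 was not tested.
LRRC15 promoter: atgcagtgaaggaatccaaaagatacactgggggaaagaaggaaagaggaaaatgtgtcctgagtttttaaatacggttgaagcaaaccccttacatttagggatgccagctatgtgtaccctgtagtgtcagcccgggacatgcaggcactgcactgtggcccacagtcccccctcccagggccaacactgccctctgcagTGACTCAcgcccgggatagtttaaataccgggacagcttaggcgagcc
A match to these letters was a description of the sequence only. TGANTCA, which reads the same on both strands, occurred in 6 of 79 matched promoters of genes called lower (7.59%) and in 6 of 146 of genes called higher (4.11%), against 6.15% of 1154 promoters of tested genes and 6.60% of all 27305 promoters in the RefSeq table. The E-box CACGTG, the core site of MYC family factors, also a palindrome, occurred in 6.16% of the promoters of genes called higher and 2.53% of those called lower, against 5.98% of tested and 6.49% of all promoters. RGS8, one of the 20 leading higher genes, holds 2 TGANTCA matches in its 250 bases (not shown), so the motif was not limited to genes that fell.

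Levels below are in CPM, the reads of a gene per 1000000 reads of its library total. These totals were 19431835 and 19561544 reads in KNS-42, against 19680615 to 21011463 in the other lines, and the listed genes held 7.98% and 7.88% of the total in KNS-42 and 7.17% to 10.2% in the other lines. Where a library holds 0 reads of a gene, up to 3 reads remain possible, or 0.143 to 0.154 CPM, and such floors and the intervals of ratios cover counting error only. How the genes of the table were chosen is not stated, and 99.3% of them differed at least 2-fold between the mean of these 5 lines and the mean of KALS-1, LN-18 and T98G, which are left out. All counts therefore describe listed genes. Between 2 libraries of a line, 89.0% of genes with at least 10 reads in both lay within 1.5-fold in KNS-42, against 85.1% in LN-229, 70.5% in SNU-1105, 90.5% in U-138MG and 87.2% in U-87MG.

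Of the 2221 genes, 1714 had enough reads to be tested. A gene was called when KNS-42 differed from each of the 4 lines, so that the largest of its 4 p-values from the edgeR quasi-likelihood test, Benjamini-Hochberg adjusted over the 1714 genes, was under 0.05, when it lay at least 2-fold from the nearest line, and when both its libraries were beyond all 8 others. With this rule 207 genes rose (12.1% of those tested) and 123 fell (7.18%) in KNS-42. Among tested genes both KNS-42 libraries lay above all 8 others for 399 (23.3%) and below them for 245 (14.3%), so 192 and 122 genes of these were not called, and 53 and 6 more genes beyond all 8 had too few reads to be tested. The median distance of the called genes from the nearest line was 2.21 on the log2 scale for higher genes (4.62-fold) and −2.47 for lower genes (5.54-fold), against 0.03 for all tested genes. Because the calls require a distance of at least 1, these medians describe the called genes and test nothing. The 0.03 is the value of a gene set to the read floor in both KNS-42 and U-138MG, so it is no measured distance. In bulk RNA, fewer cells that express a gene and less of its RNA per cell cannot be told apart.

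The same rule, applied with each of the other lines in turn in place of KNS-42, called fewer genes in each direction. U-87MG had 128 genes higher (7.47%) and 74 lower (4.32%), LN-229 had 107 (6.24%) and 78 (4.55%), U-138MG had 80 (4.67%) and 56 (3.27%), and SNU-1105 had 47 (2.74%) and 54 (3.15%). SNU-1105 also had the widest spread between its libraries, and the part of this in its counts was not tested. Line by line, KNS-42 was higher for 525 genes (30.6%) and lower for 429 (25% of those tested) against LN-229, the line in the same medium. Against SNU-1105 these numbers were 563 (32.8%) and 446 (26%), against U-138MG 572 (33.4%) and 497 (29%), and against U-87MG 585 (34.1%) and 517 (30.2%). The nearest line of a called gene was most often LN-229 for the higher genes (73 of 207) and SNU-1105 for the lower genes (43 of 123).

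**Figure D1:**
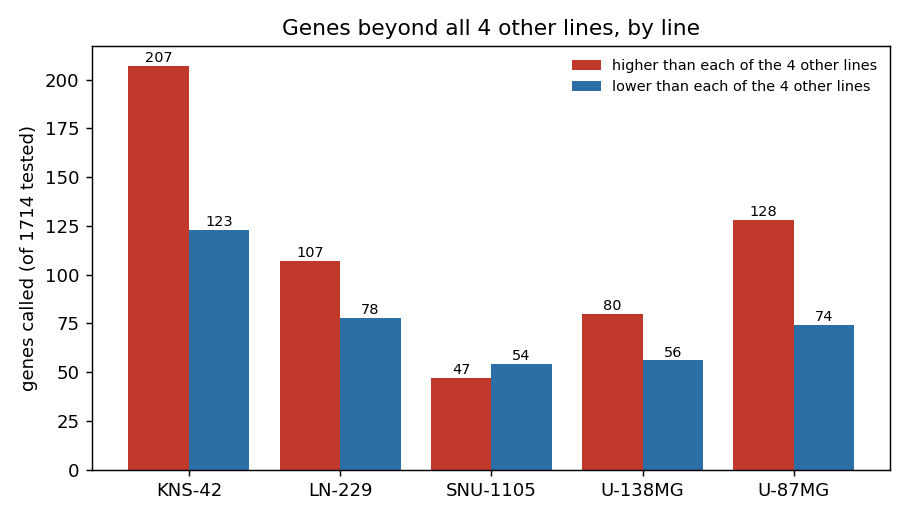
Number of genes called higher (red) or lower (blue) than each of the 4 other lines, for KNS-42 and then for each of the other lines under the same rule, out of 1714 tested genes. KNS-42 has the tallest bars, 207 higher and 123 lower, and SNU-1105 has 47 and 54.

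Several of the genes that lay furthest above the other 4 lines had few reads in their 8 libraries. DPYSL5 (chr2:26847747-26950351, plus strand), which encodes a collapsin response mediator protein of growing axons, had 92.6 and 98.8 CPM in KNS-42, against lowest, median and highest values of 0, 0 and 0.102 CPM in the 8 other libraries. These 8 held 2 reads in all, both in SNU-1105, so the ratio to that line was 1898-fold (95% counting interval 525 to 15674). LINC02582, an intergenic RNA, had 142 and 131 CPM in KNS-42, against 0, 0 and 0.15 CPM over the others, a ratio to U-138MG, with 3 reads, of 1817-fold (95% counting interval 621 to 8814). PTCHD1, a patched-domain membrane protein gene, had 45 and 46.2 CPM in KNS-42 and 0, 0 and 0.0998 CPM as lowest, median and highest of the others, and SLC9A2, a sodium/proton exchanger, had 10.3 and 12.4 CPM in KNS-42 with 1 read in the 8 other libraries (a ratio to LN-229 of 464-fold (95% counting interval 82.8 to 18349)). In the 8 libraries of the 4 lines these genes stayed under 1 CPM. Lines left out of the choice of members held more of them, up to 3.79 CPM of DPYSL5 in KALS-1 and 3.34 CPM of LINC02582 in LN-18. Against the nearest of all 7 other lines the log2 differences were 4.80 for DPYSL5, 5.38 for LINC02582, 5.42 for PTCHD1 and 4.57 for SLC9A2, and all 20 leading higher genes were still called there (3.38 to 7.63).

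REC8, which encodes a cohesin subunit of meiosis, had 136 and 133 CPM in KNS-42, against 0.559, 0.778 and 1.81 CPM (lowest, median and highest of the others). Relative to LN-229, its nearest line, REC8 rose with a log2 fold change of 6.64 (SE 0.31) and the lowest adjusted p of the higher genes (edgeR, 2.08e-09). CECR2, a bromodomain protein gene, had 15 and 17 CPM in KNS-42 and at most 0.152 CPM in the 8 other libraries. PRR36 had 19 and 23.7 CPM in KNS-42, against 0, 0.076 and 0.30 CPM, and CLDN1, which encodes the tight junction protein claudin-1, had 41 and 33.2 CPM, against 0.238, 0.577 and 1.66 CPM. In all 4 genes both KNS-42 libraries lay above the range of these 8, which every call requires. KALS-1, left out here, reached 13.3 CPM of REC8, and against all 7 lines the log2 difference was 3.42 for REC8, 3.72 for CECR2, 3.89 for PRR36 and 3.38 for CLDN1. ITIH5, an inter-alpha-trypsin inhibitor heavy chain gene, was the most abundant of the 20 leading genes by CPM, with 449.5 and 430.2 CPM in KNS-42, against 0, 0.050 and 18.5 CPM. Its values outside KNS-42 came almost wholly from LN-229, at 18.5 and 14.1 CPM. CTNNA2, the neuronal alpha-catenin, had 158 and 170.4 CPM in KNS-42, against 0, 0.684 and 6.15 CPM, the highest in U-87MG. ANO4, an anoctamin family gene, had 32.1 and 24.5 CPM in KNS-42, against 0, 0.177 and 1.4 CPM, and PLD5, a phospholipase D family gene, had 77.9 and 57.5 CPM, against 0, 0.0252 and 3.19 CPM. U-87MG was the next line for CTNNA2 and PLD5. RGS8, a regulator of G-protein signalling known from Purkinje cells, had 48.8 and 30.6 CPM in KNS-42, against 0, 0.125 and 1.57 CPM. The antisense RNA JAKMIP2-AS1 had 38.3 and 36.1 CPM in KNS-42, against 0, 0.0992 and 2.25 CPM. Over the 20 leading higher genes the adjusted p of edgeR ran from 2.08e-09 to 4.63e-06. They were picked for their distance in these same libraries, and every call requires both KNS-42 libraries above the 8 others.

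**Figure D2:**
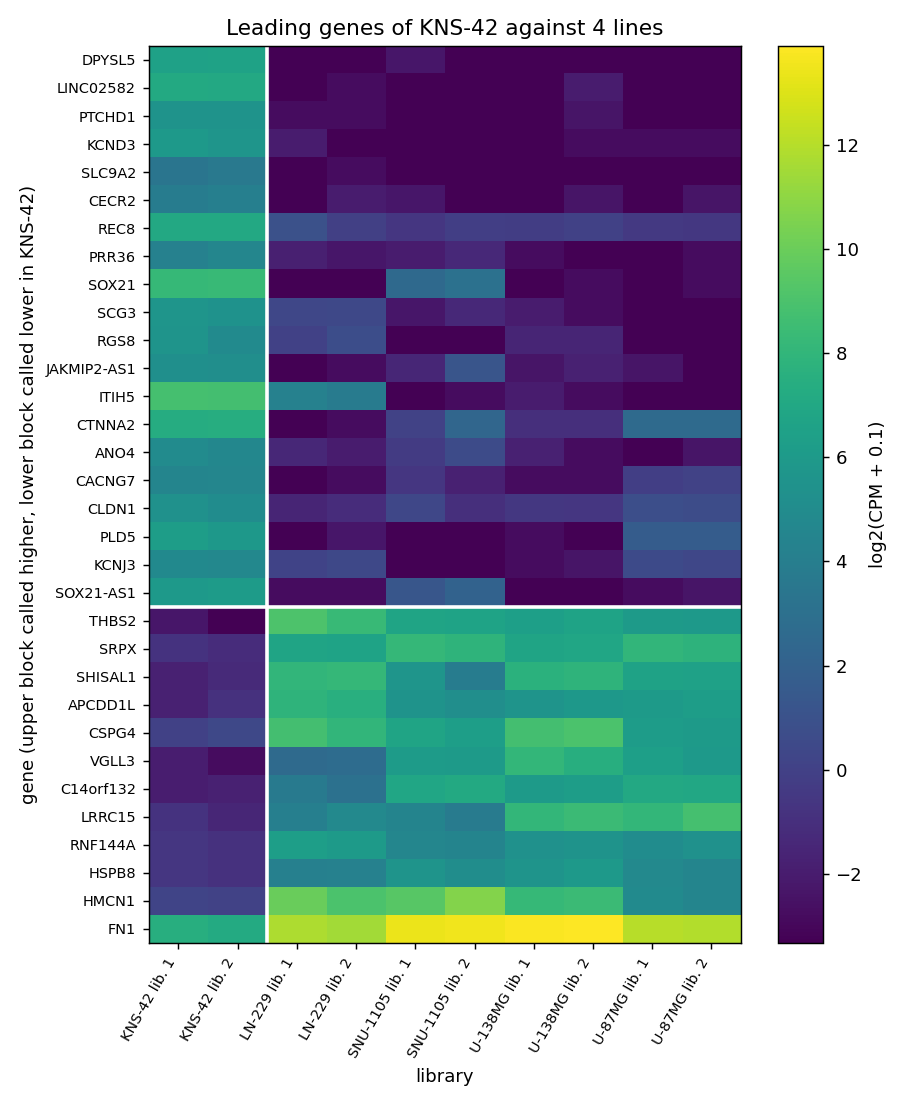
Level of the 20 leading higher and 12 leading lower genes (rows) in each library (columns, KNS-42 on the left of the white line), as log2(CPM + 0.1) on the colour scale. The upper block is brightest in the KNS-42 columns, and the lower block is darkest there, with FN1, at 179 and 148 CPM, as its highest gene in KNS-42.

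Few neural progenitor factors were in the table, and this list, like the others below, was chosen with earlier results of these data known. Of 4 tested members of a list of 30, 3 rose, none fell and FABP7 did not pass the test, against 12.1% of all tested genes higher. This share describes the 4 genes and tests nothing. SOX2 (chr3:181711924-181714436, plus strand) had 783 and 818 CPM in KNS-42, against 0.0499, 41.2 and 130.2 CPM (lowest, median and highest of the others). The others split into LN-229 (100.04 and 118 CPM) with SNU-1105 (82 and 130.2 CPM), and U-138MG with U-87MG, both under 1 CPM, and none of the 8 reached KNS-42 (edgeR, log2 fold change 2.88, SE 0.25, adjusted p = 4.85e-07 against LN-229). SOX2-OT, the long noncoding RNA within which SOX2 lies, had 231 and 218 CPM in KNS-42, against 0.0998, 2.84 and 20.8 CPM. The sources used here do not state the strand setting of the authors' counting, and both genes lie on the same strand, so reads from where they overlap cannot be told apart. SOX21 (chr13:94709622-94712399, minus strand), a SOXB factor, had 293 and 306 CPM in KNS-42, against 0, 0.0249 and 8.56 CPM, and it was seen at more than 1 read outside KNS-42 only in SNU-1105, at 5.69 and 8.56 CPM (log2 fold change 5.39, SE 0.28, adjusted p = 7.85e-09, edgeR). SOX21-AS1, whose start lies in the capitals shown above, had 64 and 68.9 CPM in KNS-42, against 0, 0.0498 and 4.1 CPM. Again SNU-1105 was the next line, at 2.39 and 4.1 CPM. MYCN, a MYC family factor of neural progenitors and neuroblastoma, had 149 and 179 CPM in KNS-42, against 14.4 and 7.72 CPM in LN-229 and 1 read over the 6 libraries of the remaining lines. FABP7, a fatty acid binding protein of radial glia, differed between the 2 KNS-42 libraries (29.2 and 12 CPM) and lay under the LN-229 level of 103 CPM.

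Of a list of 22 genes of forebrain interneuron development 5 were in the table. All 5 lay above the 8 other libraries and 3 of them were called. Of all tested genes 23.3% lay above the 8 and 12.1% were called higher. DLX6, a homeobox factor of interneuron precursors, had 35.4 and 34.7 CPM in KNS-42, against 0, 2.94 and 7.46 CPM, and DLX6-AS1, the antisense RNA that spans it, had 97.3 and 86.5 CPM, against 0, 1.14 and 12.1 CPM. With the strand setting of the counting unknown, reads of this antisense pair cannot be told apart. ERBB4, the neuregulin receptor that guides migrating interneurons, had 36 and 32.1 CPM in KNS-42, against 0.0488, 0.709 and 1.81 CPM (edgeR, log2 fold change 4.23, SE 0.28, adjusted p = 3.3e-08 against U-138MG). DLX5 (65.5 and 58 CPM in KNS-42, against 0.0499, 5.33 and 40.8 CPM) and DLX1 (89.2 and 77.8 CPM, against 15.7, 44.2 and 56.2 CPM) were above the 8 other libraries but less than 2-fold from SNU-1105.

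Of 7 tested neuronal and synaptic genes, 4 rose and none fell, beside 12.1% higher and 7.18% lower of all tested genes. Their median difference from the nearest line was 1.28 on the log2 scale. GAP43, a growth cone protein, had 198 and 244 CPM in KNS-42, against 0.299, 7.18 and 28.4 CPM (edgeR, log2 fold change 3.19, SE 0.26, adjusted p = 3.22e-07 against SNU-1105). SCG3, a secretory granule protein, had 50.6 and 43.6 CPM in KNS-42, against 0, 0.126 and 1.22 CPM. NLGN1, a postsynaptic adhesion protein, was present in every line and had 148 and 148 CPM in KNS-42, against 19.4, 37.3 and 70.2 CPM. The KNS-42 values of these 3 genes did not overlap with those of the 8 others, which every call requires. SYT4, a synaptotagmin, was called at a low level, 2.21 and 3.07 CPM in KNS-42 with 0, 0 and 0.619 CPM in the others, and the call was lost without KNS-42 library 2 (adjusted p = 0.065) or either U-138MG library (adjusted p of 0.0785 and 0.0547, edgeR) and was not made by DESeq2 (adjusted p = 0.650). SYT1 (38.5 and 31.4 CPM in KNS-42, against 2.29, 21.1 and 41.5 CPM), CNTN1 and CNTNAP2 overlapped with the other lines.

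Ion channel genes, a group put together after their values were seen, had 11 higher and 2 lower among 30 tested members (40 listed), beside 12.1% higher and 7.18% lower of all tested genes. The potassium channel gene KCND3 had 60.9 and 49.8 CPM in KNS-42, against 0, 0.0244 and 0.143 CPM, with 6 reads in the 8 other libraries, and the inward rectifiers KCNJ3 and KCNJ6 had 28.1 and 26.1 CPM and 42.6 and 34.5 CPM. The highest other library stood at 1.37 CPM for KCNJ3 and 3.68 CPM for KCNJ6. SCN3A, a sodium channel of the developing brain, had 106 and 111 CPM in KNS-42, against 0.399, 2.13 and 12.9 CPM, and SCN1A had 43.4 and 31.1 CPM, against 0, 0.125 and 8.56 CPM. SCN1A overlaps SCN1A-AS1, which was called at 1.08 and 0.92 CPM in KNS-42, and their reads cannot be told apart. GABRQ, a GABA-A receptor subunit, had the highest level of the group, 399.6 and 331 CPM in KNS-42, against 0.15, 6.16 and 131 CPM, the highest in U-87MG. GRIN2B, an NMDA receptor subunit, had 12.8 and 11.9 CPM in KNS-42, against 0, 0.0738 and 2.54 CPM, and CACNG7, an auxiliary subunit of calcium channels and AMPA receptors, had 23 and 23.4 CPM, against 0, 0.125 and 0.948 CPM. CACNA2D3 was called as well, and KCNH2 at only 1.29 and 0.818 CPM. The lower genes were KCNE4, an accessory potassium channel subunit with 3 reads in KNS-42 (0.154 and 0 CPM, against 4.88, 12.2 and 35.3 CPM), and KCNC4 (2.57 and 3.94 CPM, against 5.65, 15.3 and 41.3 CPM). Among axonemal and ciliary genes, also grouped after their values were seen, 4 of 11 tested were higher and none lower, CFAP300 at 11 and 11.1 CPM in KNS-42, against 0.457, 1.6 and 2.35 CPM, and HYDIN at 34.1 and 33.1 CPM, against 0.0499, 1.55 and 3.66 CPM, with HYDIN uncertain because of a near-identical copy. DNAH2 and DRC1 were called at under 2 CPM.

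**Figure D3:**
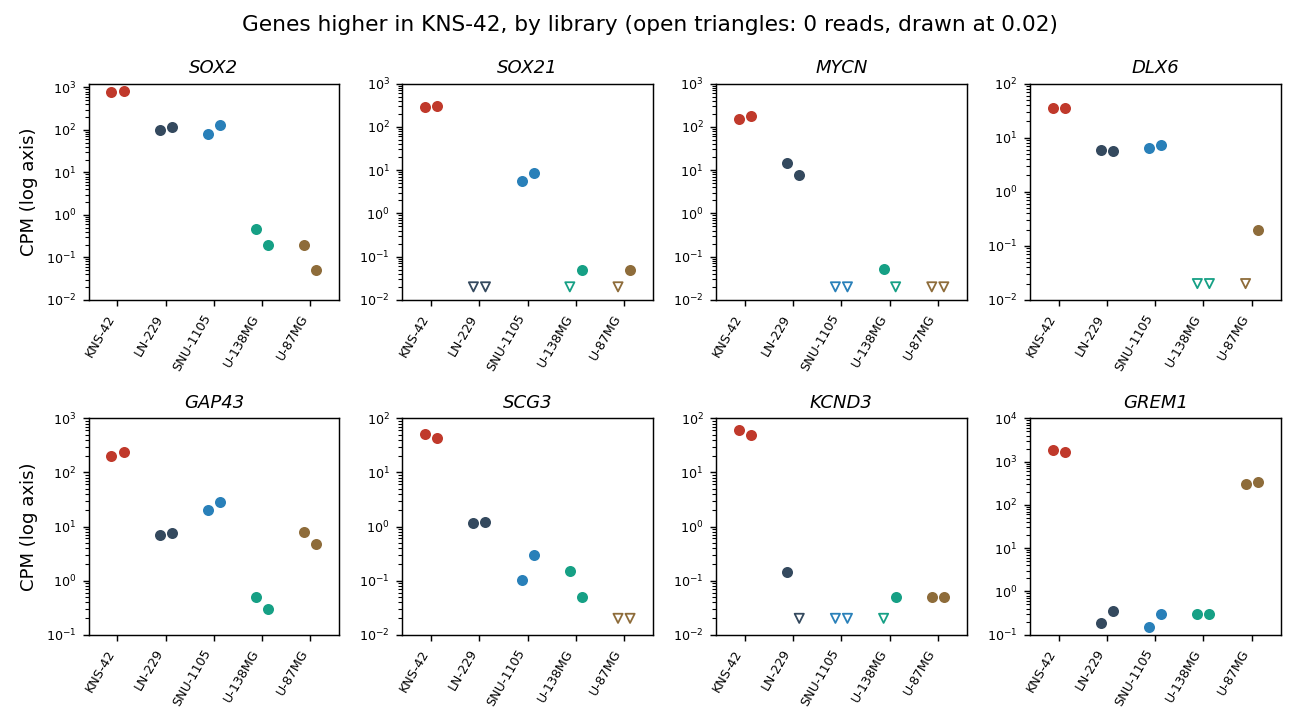
CPM of 8 genes called higher in KNS-42 (log axes, 1 panel a gene), with each point 1 library, KNS-42 leftmost, and open triangles for 0 reads, drawn at 0.02. In every panel both KNS-42 points lie above the 8 others, as the call requires. The next line changes from gene to gene, SNU-1105 for SOX21, LN-229 for MYCN and U-87MG for GREM1.

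Secreted regulators and matrix enzymes included some of the most abundant genes that rose. GREM1, a secreted BMP antagonist, had 1871 and 1635 CPM in KNS-42 and was otherwise at over 1 CPM only in U-87MG, at 298 and 337 CPM (edgeR, log2 fold change 2.46, SE 0.18, adjusted p = 1.17e-07). A2M, a broad protease inhibitor, had 1528 and 1256 CPM in KNS-42, against 0, 1.12 and 277 CPM, where LN-229 held 277 and 128 CPM. CCL2, a chemokine that attracts monocytes, had 578 and 515 CPM in KNS-42, against 0.781, 8.08 and 98.1 CPM (edgeR, log2 fold change 2.52, SE 0.17, adjusted p = 5.42e-08 against LN-229). Both KNS-42 libraries of these 3 genes exceeded the highest other library by more than 4-fold. Compared per length, CCL2 at 282 FPKM, A2M at 220.3 FPKM and GREM1 at 119 FPKM stood beside SOX2 at 319 FPKM in KNS-42. These values are the mean CPM over the gene length in kilobases.

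Of 15 tested extracellular proteases and inhibitors 5 rose (33.3%) and 2 fell (13.3%), beside 12.1% and 7.18% of all tested genes. Beside A2M and ITIH5, the rising members were 3 metalloproteases of the ADAMTS family, which cut proteoglycans and procollagens. ADAMTS15 had 466 and 494 CPM in KNS-42, against 0, 8.4 and 108 CPM, and ADAMTS16 had 60.9 and 72.7 CPM, against 4.12, 5.79 and 8.06 CPM, while ADAMTS19 was called at only 1.08 and 0.562 CPM and was below LN-18 (43.3 CPM in its higher library), a line left out. The ADAMTS19 call was lost without KNS-42 library 1 (adjusted p = 0.241, edgeR), LN-229 library 1 (0.0719) or either U-138MG library (0.165 and 0.105), and DESeq2 did not make it (adjusted p = 0.250). MMP16, a membrane-bound matrix metalloprotease, fell to 28.7 and 25.6 CPM in KNS-42, against 52.5, 158 and 361 CPM, just past the 2-fold threshold, and within it without KNS-42 library 2 (−0.93 on the log2 scale) or U-87MG library 1 (−0.95). Of 11 tested BMP and TGF-beta pathway genes 3 rose (27.3%) and 2 fell (18.2%), beside the same 12.1% and 7.18%. BMP6, a ligand, had 53.7 and 40.4 CPM in KNS-42, against 1.78, 3.26 and 11.8 CPM, and RGMA, a BMP co-receptor and axon guidance protein, had 91.2 and 101 CPM, against 0, 0.0249 and 16.5 CPM. The BMP antagonist CHRDL1 moved the other way from GREM1, with 4 reads in KNS-42 (0.154 and 0.0511 CPM, against 1.75, 51.1 and 224 CPM). LTBP1, which anchors latent TGF-beta in the matrix, had 19.97 and 17.3 CPM in KNS-42, against 42.3, 353 and 682 CPM. The ligand TGFB2 and the receptor BMPR1B overlapped between KNS-42 and the other lines.

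The largest falls included genes of secreted and membrane-bound matrix. THBS2 (chr6:169215780-169254044, minus strand), a matricellular thrombospondin, had 0.103 and 0 CPM in KNS-42, which is 2 reads, against 64.2, 102 and 548 CPM (lowest, median and highest of the others). Every other library held 64.2 CPM or more, and relative to U-87MG the level was 1278-fold (95% counting interval 353 to 10558) lower. SRPX, a sushi-repeat protein, had 0.463 and 0.358 CPM in KNS-42, against 99.7, 167 and 281 CPM, with the lowest adjusted p of all called genes (edgeR, log2 fold change -7.96, SE 0.27, adjusted p = 9.39e-11 against LN-229). SHISAL1 had 0.206 and 0.307 CPM in KNS-42, against 15, 149 and 280.4 CPM, and APCDD1L had 0.206 and 0.46 CPM, against 36.6, 61.2 and 237 CPM. In none of these 4 genes did KNS-42 reach 1 CPM, where each other line averaged 33.0 CPM or more.

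CSPG4, the NG2 proteoglycan of oligodendrocyte progenitors and pericytes, had 0.926 and 1.23 CPM in KNS-42, against 67.9, 185 and 511 CPM. VGLL3, a cofactor of TEAD transcription factors, had 4 reads in KNS-42 (0.154 and 0.0511 CPM), against 6.0, 68.5 and 267 CPM, where LN-229 was lowest. LRRC15, whose promoter is shown above, had 0.463 and 0.256 CPM in KNS-42, against 14.3, 146 and 451 CPM. Its other values fell into a low pair, LN-229 and SNU-1105 at 14.3 to 27.6 CPM, and a high pair, U-138MG and U-87MG at 264 to 451 CPM. HMCN1, a basement membrane protein, had 1.08 and 0.971 CPM in KNS-42, against 23, 434 and 1698 CPM, and HSPB8, a small heat shock protein, had 0.566 and 0.46 CPM, against 17.7, 30.7 and 60.2 CPM. C14orf132 had 0.154 and 0.204 CPM in KNS-42, against 8.38, 96 and 138.5 CPM, and RNF144A, a ubiquitin ligase, had 0.566 and 0.46 CPM, against 21.4, 42 and 80.1 CPM. For the 12 leading lower genes the adjusted p of edgeR ran from 9.39e-11 to 2.31e-06. That no KNS-42 library overlapped with the 8 others follows from the rule for a call.

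FN1, the fibronectin gene, was the most abundant of the 12, with 179 and 148 CPM in KNS-42, against 2909, 7444 and 15204 CPM (edgeR, log2 fold change -4.29, SE 0.17, adjusted p = 4.69e-10 against LN-229). Of the 8 tested structural matrix genes FN1 and FBN1 fell, MFAP5 rose and 5 did not pass the test (25% lower and 12.5% higher, beside 7.18% and 12.1% of all tested genes). FBN1, which encodes the microfibril protein fibrillin-1, had 55.4 and 55.6 CPM in KNS-42, against 296, 1213 and 4227 CPM, while MFAP5, a microfibril-associated protein, had 124 and 143 CPM, against 0, 3.3 and 10.8 CPM. The list thus held called genes in both directions, with a median distance from the nearest line of −0.11 on the log2 scale. LAMC1, a laminin chain, averaged 517 ± 35.8 CPM in KNS-42 (SD, n = 2), against 582, 1082 and 1774 CPM, and COL11A1 averaged 552 ± 17.1 CPM, against 2.74, 46.7 and 1189 CPM. Integrin genes, a group put together after their values were seen, had 3 lower and none higher among 6 tested, beside 7.18% lower and 12.1% higher of all tested genes. ITGA5, the fibronectin receptor subunit, had 28.5 and 28.6 CPM in KNS-42, against 181, 672 and 932 CPM (edgeR, log2 fold change -2.77, SE 0.18, adjusted p = 2.75e-08 against LN-229). ITGA3, a laminin receptor subunit, had 225 and 253 CPM in KNS-42, against 1377, 1439.97 and 2179 CPM, a narrow range among the other lines. ITGA10 was lower at 1.24 and 1.18 CPM in KNS-42, against 3.0, 6.15 and 91.1 CPM. ITGB3, ITGB8 and ITGA9 were not called, and ITGB8 averaged 332 ± 4.42 CPM in KNS-42 (SD, n = 2), within the range of LN-229 and SNU-1105.

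Among 6 tested mesenchymal glioblastoma genes 2 fell and none rose, beside 7.18% lower and 12.1% higher of all tested genes. FOSL1, an AP-1 subunit, had 22.5 and 33.6 CPM in KNS-42, against 92.3, 279 and 393 CPM (edgeR, log2 fold change -2.54, SE 0.34, adjusted p = 3.34e-05 against SNU-1105). VIM, the intermediate filament of mesenchymal and glioma cells, was high in every line, 4763 and 5031 CPM in KNS-42, against 3249, 3798 and 5406 CPM, and did not pass the test. CHI3L1, PRRX1 and WWTR1 lay between the other lines.

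**Figure D4:**
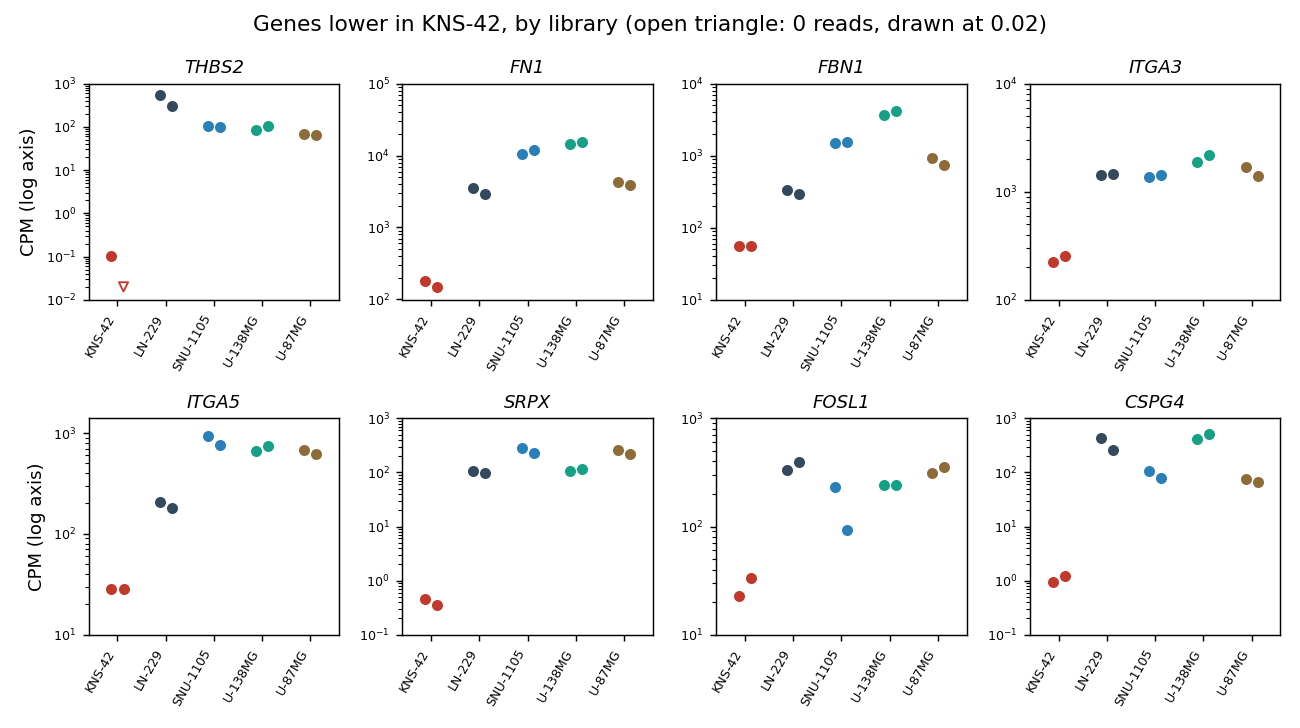
CPM of 8 genes called lower in KNS-42 (log axes, 1 panel a gene), with each point 1 library, KNS-42 leftmost, and an open triangle for 0 reads, drawn at 0.02. Both KNS-42 points lie under the 8 others in every panel, as the call requires. The distance is largest for THBS2 and least for FOSL1, with 22.5 and 33.6 CPM in KNS-42, against 92.3 CPM in the lowest other library.

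Several lists held few called genes or none, beside 12.1% higher and 7.18% lower of all tested genes. None of 13 tested genes of MHC class II and antigen presentation was called, and both KNS-42 libraries of HLA-DRA (471 and 511 CPM) lay inside the range of the other lines (0.559 to 1145 CPM). Members of the MHC class II family can share reads, so single values are uncertain. Of 17 interferon response genes only IFIT1 was called, at 50.1 and 39.3 CPM in KNS-42, against 2.79, 9.8 and 14.8 CPM, and that call was lost with all 7 other lines, since KALS-1 reached 259 CPM. OAS3 (38.5 and 50.1 CPM) lay within the other 4 lines. Of 10 tested Wnt pathway genes the receptor FZD8 fell to 1.96 and 2.61 CPM in KNS-42, against 9.96, 46.5 and 82 CPM, and 9 were not called, among them the receptor FZD1, which was above the 8 other libraries but less than 2-fold from LN-229 (247 and 217 CPM in KNS-42, against 49.97, 84.8 and 164 CPM). None of 4 astrocyte genes was called. CLU, a secreted chaperone of astrocytes, was above the 8 other libraries, but less than 2-fold from U-138MG, at 846 and 970.1 CPM in KNS-42, against 35.4, 314 and 689 CPM. None of 15 numbered zinc finger genes and none of 4 HOX genes was called, and of 45 intergenic RNAs named LINC 4 were higher (8.89%) and none lower. Among genes that GENCODE 29 places outside the protein-coding class, 28 of 330 rose and 8 fell (8.48% and 2.42%), against 176 and 113 of 1350 protein-coding genes (13.0% and 8.37%).

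Of 16 tested axon guidance genes SEMA6A and EFNB2 rose (12.5%), SEMA7A, NTNG1 and SEMA5A fell (18.8%), and 11 were not called, beside 12.1% and 7.18% of all tested genes. EFNB2, a membrane ligand of Eph receptors, had 311 and 352 CPM in KNS-42, against 22.9, 83.4 and 162 CPM, and was under 2-fold with TMM factors (log2 fold change 0.73 against the nearest line). SEMA6A, a transmembrane semaphorin, had 53.8 and 49.3 CPM in KNS-42, against 0.254, 2.29 and 20.7 CPM. SEMA7A, a membrane-anchored semaphorin, had 1.08 and 2.2 CPM in KNS-42, against 11.3, 64.7 and 236 CPM, and NTNG1, a netrin G adhesion protein, had 3.76 and 2.91 CPM, against 10.5, 76.4 and 131 CPM. SEMA5A had 40.5 and 45.6 CPM in KNS-42, against 105, 155 and 341 CPM. Of 14 tested cadherins, protocadherins and integrins in the list CDH3 rose at a low level, 1.13 and 1.74 CPM in KNS-42 with at most 0.356 CPM in the other 4 lines, a call lost without KNS-42 library 2 (adjusted p = 0.119, edgeR) or SNU-1105 library 2 (0.0549) and not made by DESeq2 (adjusted p = 0.0599). PCDHB7, whose reads can be shared with other protocadherin beta genes, fell with ITGA3 and ITGA10. Among 9 tested cytokine genes the neutrophil chemokine CXCL3 fell, with 3 reads in KNS-42 (0.103 and 0.0511 CPM, against 0.45, 5.4 and 146 CPM), as did IL16 (1.13 and 1.28 CPM, against 3.03, 4.73 and 53.8 CPM), and both calls were lost without KNS-42 library 1 (adjusted p of 0.0664 and 0.0627, edgeR). The CXCL3 call was also lost without KNS-42 library 2 (0.14) or SNU-1105 library 1 (0.144). Of 5 receptor tyrosine kinases only ERBB4 was called, and PDGFRA, a growth factor receptor of oligodendrocyte progenitors, had 324 and 379 CPM in KNS-42, between U-138MG (1168 and 1192 CPM) and the other 3 lines (at most 20.0 CPM).

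The labelled cell type was checked on the markers in the table. SOX2, PDGFRA and VIM were present in KNS-42 at the levels given above, and GFAP, NES, OLIG2, S100B and EGFR are not analysed here. Of 16 immune cell markers 4 were listed, with a summed level of 0.720 to 1.02 CPM in the KNS-42 libraries, against 0.863 to 26.6 CPM in the others, and PTPRC had 0 reads in KNS-42. The 8 listed endothelial and mural markers summed to 93.2 to 124 CPM in KNS-42, against 184 to 576 CPM in the others. They include CSPG4, which averaged 1.08 CPM in KNS-42 and 71.0 CPM (U-87MG) to 465 CPM (U-138MG) in the other lines. EMCN and FLI1 had 0 reads in KNS-42, and most of its sum was MMRN1, a multimerin, at 116 and 85.2 CPM in KNS-42, against 0, 0 and 17.2 CPM. The 4 listed simple epithelial markers summed to 27.4 to 31.3 CPM in KNS-42, against 0.798 to 70.0 CPM in the others, with CDH1 at 0.565 CPM on average in KNS-42.

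Some levels that set KNS-42 apart were shared with 1 other line. KNS-42 and LN-229 together lay above the 3 remaining lines in every library for 181 tested genes (10.6%) and below them for 164 (9.57%). With SNU-1105 these counts were 112 (6.53%) and 108 (6.3%), with U-138MG 108 (6.3%) and 65 (3.79%), and with U-87MG 102 (5.95%) and 73 (4.26%). Among pairs without KNS-42, U-138MG with U-87MG had 173 above and 158 below, near the counts of KNS-42 with LN-229. Both of these pairs share a medium, EMEM for U-138MG with U-87MG and DMEM for KNS-42 with LN-229, and no other pair does. For levels shared within them, the medium and the lines cannot be told apart. The other pairs without KNS-42 had 78 to 95 above and 71 to 103 below. Every count with KNS-42 includes genes called for KNS-42 alone, since a gene may be shared with a line and still be higher in KNS-42. The largest gaps with LN-229 were in COBL, an actin nucleator, RGMA, ITIH5 and MYCN. COBL averaged 128 ± 21.5 CPM in KNS-42 (SD, n = 2) and 52.8 CPM in LN-229, with at most 0.0998 CPM in the other lines. SNU-1105 shared MMRN1, SOX21, HHIPL1 and SPOCK2, a brain proteoglycan at 267 and 278 CPM in KNS-42 and 16.3 and 22.3 CPM in SNU-1105. U-138MG shared KCNA4, RASSF9, HS3ST1 and PDGFRA. The potassium channel gene KCNA4 was level between them, 6.18 and 6.34 CPM in KNS-42 and 6.35 and 6.68 CPM in U-138MG. U-87MG shared GREM1, TBX18, PLD5 and PPIEL, and TBX18, a T-box factor, had 43.8 and 45.5 CPM in KNS-42 and 26.1 and 22.1 CPM in U-87MG, with at most 0.102 CPM in the other 3 lines.

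Some called genes were neighbours in the genome. Of 410 pairs of tested genes within 100 kb of each other (GENCODE 29, GRCh38), 20 (4.88%) were both called, 13 both higher, 6 both lower and 1 opposite. In 98 pairs (23.9%) exactly 1 gene was called. Of single tested genes 19.3% were called, which is not a like measure to a share of pairs. Of the 20 pairs, 7 overlapped. On chromosome 12, LIN7A (chr12:80792520-80937925, minus strand), ACSS3 (chr12:80936414-81261205, plus strand) and PPFIA2 (chr12:81257975-81759553, minus strand) overlap at their ends and rose together. ACSS3 lies on the opposite strand from both, so reads from the overlaps cannot be told apart. LIN7A, a synaptic scaffold protein, had 187 and 198 CPM in KNS-42, against 0.102, 2.22 and 18.2 CPM, and PPFIA2, the presynaptic protein liprin-alpha-2, had 23.2 and 19.5 CPM, against 0.0476, 2.05 and 5.9 CPM. ACSS3, an acyl-CoA synthetase, had 144 and 139 CPM in KNS-42, against 0, 6.18 and 26.7 CPM, so in all 3 genes U-138MG was the next line. DPYSL5 and MAPRE3, a microtubule plus-end protein, lie 20261 bases apart on chromosome 2, where MAPRE3 had 93.6 and 96.5 CPM in KNS-42, against 22.1, 26.2 and 33.4 CPM. The opposite pair was SLC26A9, an anion transporter at 5.71 and 7.26 CPM in KNS-42, against 0, 0.221 and 0.549 CPM, and RAB7B, a late endosomal GTPase at 0.154 and 0.46 CPM, against 5.59, 17.3 and 49.2 CPM. DDX60 and DDX60L, related RNA helicase genes on chromosome 4, were both lower, DDX60 at 4.32 and 3.73 CPM in KNS-42, against 12.1, 16.1 and 22.4 CPM.

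By chromosome, the share of tested genes called higher ran from 0 of 31 on chromosome 20 to 4 of 12 on chromosome 21. Chromosome 13 had 9 of 36 higher (25%) and none lower, and its tested genes had a median log2 fold change of 1.15 against LN-229, 1.45 against SNU-1105, 1.25 against U-138MG and 1.28 against U-87MG. Relative to the log-scale mean of the 4 lines the median was 1.93 on chromosome 13, against 0.21 over all tested genes. Chromosome 18 had 9 of 31 higher and none lower. Chromosome 8 went the other way, with 1 of 59 higher and 10 lower (16.9%). Its median was −1.05 against SNU-1105, −1.77 against U-138MG and −1.40 against U-87MG. Against LN-229 the median of 0.06 is the value of a gene set to the read floor in both lines. It reflects their library totals, so it does not measure that the lines were equal on this chromosome. The lower genes on chromosome 8 included MMP16, ENPP2, which encodes autotaxin, at 6.59 and 5.93 CPM in KNS-42, against 54.1, 113 and 239.8 CPM, and COL22A1, with 0 reads in KNS-42 and 1.27, 21.8 and 72.7 CPM in the others.

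**Figure D5:**
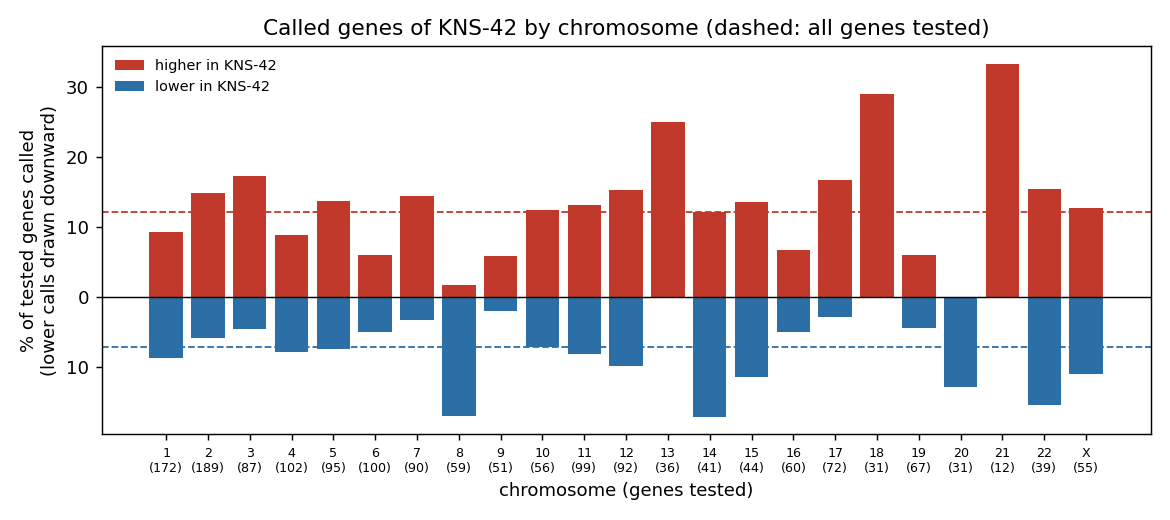
Percent of tested genes called higher (red, upward) or lower (blue, drawn downward) in KNS-42 on each chromosome, with the number of tested genes in brackets and dashed lines for all tested genes (12.1% and 7.18%). Chromosomes 13, 18 and 21 have only upward bars and chromosome 20 only a downward bar, while chromosome 8 has 16.9% lower and 1.69% higher.

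Of the 3 lines left out, KALS-1, LN-18 and T98G, 6 libraries exist in the same table. For 169 of the 207 higher genes KNS-42 also lay above all 6. For 46 of the 123 lower genes it lay below all 6, while for 77 at least 1 of the 3 lines was at or under the highest KNS-42 library. Over all 1714 tested genes the mean of the 3 lines was above the mean of the 5 lines for 26.8%. Among higher genes this share was 18.4% and among lower genes 14.6%. Most tested genes were thus lower on average in the 3 lines whatever their call, so these counts cannot be read as a trait of the called genes. LRRC15 and THBS2, for instance, ran from 0 to 0.175 CPM and from 0.0522 to 0.935 CPM in the 6 libraries, close to KNS-42. SOX21 (0 to 0.0509 CPM) and SCG3 (0 to 0.102 CPM) stayed near 0 there. At the 2-fold threshold, the last genes inside were MDH1B at 1.00 and AC002401.4 at −1.01 on the log2 scale, and the nearest outside were CCDC102B at 0.99 and RAPH1 at −0.99.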

How the data were processed

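Poly(A) RNA of each line was sequenced in 2 strand-specific libraries, per the labels. The authors deposited raw read counts, FPKM and gene lengths for 2221 genes of 8 lines, per the file headers. Per the submitters' processing notes, the tools were StringTie 1.3.3, HTSeq 0.6.0, HISAT2 2.2.1, FastQC 0.10.1 and cutadapt 1.9.1, and the genome build hg38/GRCh38. The role of each tool, the annotation and how the genes were chosen are not given in the sources used here, and the choice affects every count. A table of 3 further lines was not used here.

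Library totals were worked out as reads divided by gene length and the deposited FPKM, using genes that reached 20 FPKM and 200 reads, and gave back the deposited FPKM within 0.01 for 99.9% or more of genes. Genes passing edgeR's filterByExpr by line (minimum count 10) were tested with the edgeR 4.0.16 quasi-likelihood test on the counts with these totals, with 1 coefficient per line over the 10 libraries. The SE was worked back from the F statistic. Benjamini-Hochberg adjustment covered all 1714 tested genes. The procedure was run on simulated data with a fixed dispersion, whose outcome is not reported here. Planted changes lay only in genes with reads in each of the 4 other lines. Rises from near 0 reads, as in several leading higher genes, were not simulated. A fold is against the nearest of the 4 lines, and a line under 3 reads was set to 3 reads in medians.

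The text names the 20 called higher genes furthest from the nearest line with at least 10 CPM in both KNS-42 libraries, the 12 lower genes with at least 5 CPM in every other library, up to 5 higher and 3 lower members of each list, the 4 genes most shared with each line, and the 2 on either side of the threshold. Other genes, among them those of the channel, ciliary, integrin, LINC and zinc finger groups and of the neighbour and chromosome paragraphs, were named after their values were seen. The members and lists were chosen with earlier results of these data known. Some called genes are counted but not reported here by name. Coordinates are from GENCODE 29 (GRCh38) for 2153 genes, and promoters from RefSeq (GRCh38.p14) for 225 of the 330 called genes. Alternatives were TMM and RLE factors, other filters and thresholds, DESeq2 1.42.0, limma 3.58.1, other sets of lines, a replicate block and leaving out each library. Figures and motif counts used Python 3.11.15.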

Additional observations from a re-analysis of the deposited data

How the results depend on the processing

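Against 207 higher and 123 lower genes, TMM factors gave 176 and 141, RLE factors 183 and 140, no low-count filter 199 and 115, DESeq2 188 and 122, limma 199 and 132, no fold threshold 250 and 150, and all 16 libraries in the fit 211 and 120. TMM shifted the median of all genes by −0.18 against LN-229, −0.40 against SNU-1105, −0.15 against U-138MG and −0.06 against U-87MG. The counts moved with a mean of at least 5 CPM (116 higher, 105 lower) and a log2 fold change of at least 2 (113 and 79), both of which admit fewer genes. They also moved with the log-scale mean of the 4 lines as the reference (368 and 222), with LN-229 alone (525 and 428, both libraries beyond those of LN-229), and for lower genes with all 7 other lines (163 and 28) and without the line LN-229 (290 and 210), which change the lines a gene must pass. Leaving out 1 library gave 184 to 209 higher and 106 to 126 lower genes. Same-numbered libraries did not deviate together in the tested genes (correlations −0.03 to 0.09). This shows no shared shift but cannot tell if same-numbered libraries were prepared together. A fit with the replicate block gave 208 and 122.

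Of 74 named genes that were called, 39 were called under every one of the 27 alternatives, and 11 were not tested under at least 1, such as a mean of at least 5 CPM. With all 7 other lines the log2 difference from the nearest line changed sign for VGLL3 (1.67), LRRC15 (1.36), HMCN1 (0.38), MMP16 (0.68), LTBP1 (0.014), FZD8 (0.19), ITGA10 (0.26), ADAMTS19 (−0.96) and CDH3 (−1.37), since KALS-1, LN-18 or T98G lay beyond KNS-42. The smallest difference from any of the 7 lines kept its sign, without a call, for THBS2 (−0.92), CSPG4 (−0.03), C14orf132 (−2.01), FBN1 (−0.24), ITGA3 (−0.12) and CHRDL1 (−0.96). The same held for SEMA7A (−0.15), NTNG1 (−0.67), SEMA5A (−0.60), PCDHB7 (−0.47), IL16 (−0.21), CXCL3 (−1.74) and IFIT1 (1.73). A kept sign does not place KNS-42 beyond all 7 lines, since for IFIT1 KALS-1 lay above KNS-42. DESeq2 did not call SYT4 (2.91), ADAMTS19 (2.71) and CDH3 (2.24). Without KNS-42 library 1 the calls of ADAMTS19, CXCL3 and IL16 were lost (log2 differences 2.11, −3.35 and −1.30), and without KNS-42 library 2 those of SYT4, MMP16, CXCL3 and CDH3 (2.64, −0.93, −2.43 and 1.88). Calls were also lost without SNU-1105 library 1 (CXCL3, −2.46) and library 2 (CDH3, 1.99), without U-87MG library 1 (MMP16, −0.95), without LN-229 library 1 (ADAMTS19, 2.65), and without U-138MG library 1 (SYT4, 2.71, and ADAMTS19, 2.41) or library 2 (SYT4, 3.04, and ADAMTS19, 2.95). The threshold genes MDH1B and AC002401.4 were lost in most of these fits. The cause was not tested. In these libraries 1 CPM corresponds to 19.4 to 21.0 reads, so genes at low CPM rest on few reads, and 507 listed genes were not tested.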

Other observations

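Genes outside the lists, named after their values were seen, also lay far from the other lines. SYNPR, a synaptic vesicle protein, had 17.9 and 8.89 CPM in KNS-42 and 3 reads in the 8 other libraries, a ratio to SNU-1105 of 265-fold (95% counting interval 73 to 2194). NPY1R, a neuropeptide Y receptor, had 32.2 and 26.4 CPM in KNS-42, against 0, 0.987 and 3.79 CPM as lowest, median and highest of the others, and S1PR1, a sphingosine 1-phosphate receptor, had 63.6 and 72.5 CPM, against 0.0476, 0.833 and 6.5 CPM. SESN3, a stress-responsive sestrin, was abundant at 938 and 853 CPM in KNS-42, against 4.84, 67.2 and 203 CPM. It lies within LNCRNA-IUR on the opposite strand, also called higher, and their reads cannot be told apart. PEG10, an imprinted gene derived from a retrotransposon, had 1706 and 1485 CPM in KNS-42, against 117, 427 and 620.4 CPM. The KNS-42 libraries of these 5 genes did not overlap with the 8 others, which every call requires. Per length the highest of the called genes was IGFBP5, an insulin-like growth factor binding protein, at 440.5 FPKM in KNS-42. Its CPM values were 3002 and 2694 CPM in KNS-42, against 3.07, 558 and 1408 CPM, and the 3 lines left out were higher still (3649 to 11818 CPM).

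Among lower genes, HMGA1, a chromatin architectural protein, had 18.9 and 25 CPM in KNS-42, against 139.97, 663 and 788 CPM, with its reads uncertain because of processed copies. FTL, the ferritin light chain, had 251 and 197 CPM in KNS-42, against 621, 1024 and 2528 CPM, also uncertain for the same reason. Both genes were expressed in every line, and KNS-42 lay under all 8 other libraries, which every call as lower requires. GDNF, a neurotrophic factor first found in glial cells, had 1 read in KNS-42, against 0.499, 26.7 and 187 CPM, a ratio to U-138MG, with 27 reads, of 26.4-fold (95% counting interval 4.35 to 1081). LRRK2, a kinase known from Parkinson's disease, also had 1 read in KNS-42, against 1.47, 20.005 and 58.8 CPM. COL22A1, a collagen, had 0 reads in KNS-42 and was at least 19.3-fold lower than SNU-1105, its nearest line, on a floor of 3 reads over the 2 KNS-42 libraries. In all, 8 lower genes had 0 reads in KNS-42 and 65 averaged under 1 CPM there, while 137 of the 207 higher genes had at least 10 CPM in both KNS-42 libraries.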
